A study of Mus musculus with 44 samples.

Results

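The genes described here mark where a hepatocyte lies between the portal vein and the central vein of a liver lobule. They were chosen by name: 6 pericentral genes (Glul, Oat, Slc1a2, Rhbg, Axin2 and Tbx3) and 3 periportal genes (Hal, Sds and Gls2). Of these 9 genes, 8 had a row among the 38202 genes of the tables, and Rhbg, an ammonia transporter gene, was not analysed here. Transcript counts came from the liver and the skeletal muscle of 11 WT and 11 Slc16a13 KO mice, all male and on a C57BL/6N background, at an age of 20 weeks after 15 weeks on high-fat diet (HFD). KO mice carried a CRISPR/Cas9 deletion of the proximal promoter and the first exons of Slc16a13 in every tissue, and WT mice were littermates without it. No mouse of another diet was among the 44 libraries. Slc16a13 encodes a lactate transporter, and liver and muscle of a mouse carry the same animal number.

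Blood enters the lobule at the portal side and leaves at the central vein, and hepatocytes along this path divide the work of nitrogen metabolism. Periportal cells break down amino acids and release glutamine-derived ammonia into the urea cycle, while a thin pericentral layer captures the ammonia that is left as glutamine. Wnt ligands and R-spondins from endothelial cells of the central vein set up the pericentral programme through β-catenin and TCF/LEF factors. In bulk liver a gene's level is an average over all zones, so that fewer cells of a zone and less RNA per cell cannot be told apart.

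Libraries held 20150712 to 35218243 counted reads. WT livers had 99 to 302 reads on Slc16a13 and KO livers had 0 to 8. In muscle the count went against the label, with 4 to 22 reads in WT libraries and 11 to 40 in the others, which are called the muscle libraries labelled KO. Summed hepatocyte markers lay between 72083 and 104334 CPM, counts scaled to library size, in liver and between 0.215 and 7.75 CPM in muscle. Of the KO livers, 4 (mice 532, 583, 602 and 611) stood apart because their log2 CPM, relative to the mean of all livers, fell with gene length (slopes of -0.53, -0.25, -0.42 and -0.08 log2 CPM per doubling of length, against 0.04 to 0.10 in WT livers). They are called the low-slope livers, and the values without them are given beside the results they moved.

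The order of the genes by level was the same in WT and KO livers. Per gene length (RPKM, reads per kilobase scaled to library size), the WT medians were 748 for Oat, which degrades ornithine, and 693 for Glul, glutamine synthetase. They were followed by 156 for Gls2, the liver glutaminase that releases ammonia from glutamine, and by 143 for Hal, which starts histidine breakdown. Sds, serine dehydratase, had a median of 88.7 RPKM and Slc1a2, a glutamate transporter, of 56.2. Tbx3, a transcription factor gene, and Axin2, a negative-feedback target of Wnt signalling, were lowest with 8.22 and 3.20 RPKM. The ranges of Glul and Gls2 and those of Slc1a2 and Tbx3 did not overlap, which set apart a top pair, a middle group of 4 and a low pair. Within these groups some neighbours were close: Oat exceeded Glul in 8 of 11 WT livers and Gls2 exceeded Hal in 8 of 11. Sds exceeded Slc1a2 in 10 of 11, and Hal exceeded Sds and Tbx3 exceeded Axin2 in 11 of 11. In KO livers the medians were 663, 593, 166, 152, 78.2, 56.1, 7.69 and 3.05 RPKM in that order.

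WT mice differed in these genes more than in most genes of similar level. Across WT livers the standard deviation (SD) of log2 CPM was 0.60 for Tbx3, 0.48 for Sds and 0.38 for Axin2. These values exceeded those of 98.4%, 97.3% and 94.0% of the genes whose mean lay within 0.5 log2 CPM. Slc1a2 varied least among the 8 genes, with an SD of 0.16, which still exceeded that of 72.2% of such genes. In KO livers the shares ran from 41.7% for Glul to 87.8% for Axin2, and without the low-slope livers from 57.3% to 97.8%.

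**Figure D1:**
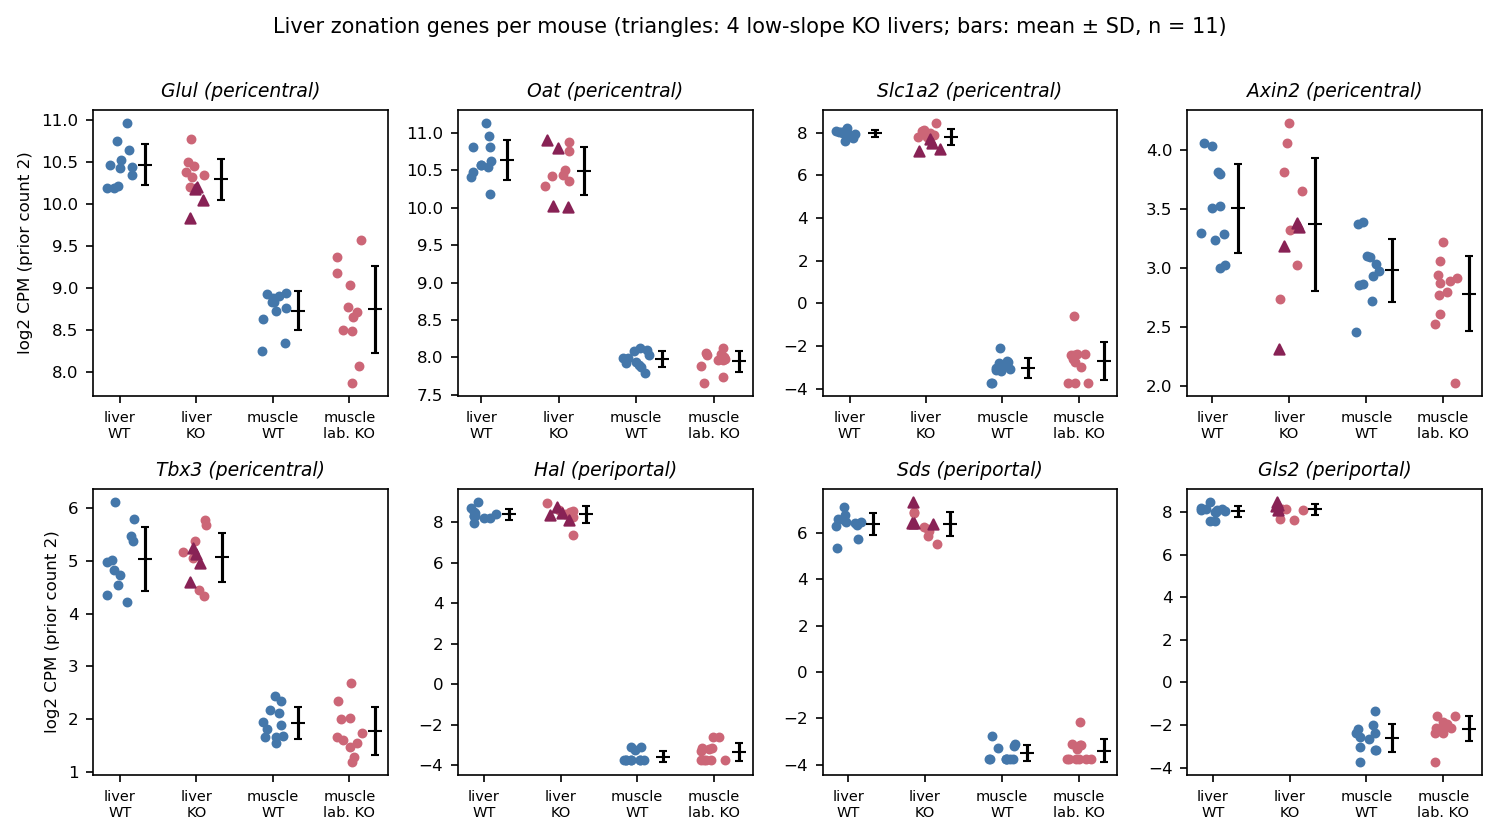
Log2 CPM of the 8 genes in each mouse, by tissue and genotype (points: mice; bars: mean ± SD, n = 11). WT and KO livers overlap for every gene, and the low-slope livers (triangles) hold the lowest Glul and Slc1a2 values among KO livers.

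None of the 8 zonation genes differed between KO and WT livers beyond the spread between mice. The largest difference was in Glul, with a log2 fold change (KO over WT) of -0.18 (standard error, SE, 0.10). Across all 13005 genes tested, 3 passed an adjusted p of 0.05 (0.0231% of genes; quasi-likelihood test of edgeR, adjusted after Benjamini and Hochberg, n = 11 and 11), and 0 of the 8 were among them. At an unadjusted p under 0.05 the count was also 0 of 8 in this fit, where 12.9% of all genes passed. DESeq2 (0.0461% of all genes called) and limma-voom (0.0231%) called 0 of the 8 as well, and so did edgeR without the low-slope livers (0.0227%).

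Glul ranged from 1168 over a median of 1394 to 2009 CPM in WT livers and from 915 over 1284 to 1755 CPM in KO livers. The 4 low-slope livers had the lowest values of the KO group, 915 to 1179 CPM, and the other 7 KO livers, 1183 to 1755 CPM, lay inside the WT range. The 95% interval of the log2 fold change ran from -0.39 to 0.04 (adjusted p = 0.399, edgeR), and the change was -0.05 without the low-slope livers (interval -0.27 to 0.16). On log2 RPKM with a pseudocount of 0.1 it was -0.33 (SE 0.14, unadjusted p = 0.0331, adjusted p = 0.299, limma). The deposited RPKM did not follow CPM by a fixed length per gene. Glul was 1179 CPM and 405 RPKM in low-slope mouse 532, against 1171 CPM and 563 RPKM in WT mouse 623.

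Oat, which shares the pericentral layer with Glul, ranged from 1160 over 1523 to 2252 CPM in WT livers and from 1034 over 1383 to 1923 CPM in KO livers. The groups overlapped over most of their ranges, and low-slope livers were found at both ends of the KO range. The log2 fold change was -0.14 (SE 0.12, interval -0.39 to 0.11), and -0.13 without the low-slope livers.

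Slc1a2 ranged from 197 over 252 to 294 CPM in WT livers and from 142 over 224 to 353 CPM in KO livers. The low-slope livers, at 142 to 207 CPM, did not overlap the other KO livers, at 220 to 353 CPM. Its log2 fold change was -0.14 (SE 0.12, interval -0.38 to 0.11) over all KO livers. The direction turned to 0.06 without the low-slope livers (interval -0.13 to 0.24) and the value was 0.00 when the dependence on gene length was removed. For Glul the log2 fold change was -0.18 both before and after this removal. The part of gene length in the low Slc1a2 and Glul values of these livers was not tested for a single gene.

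The 2 low-abundance genes of the Wnt-dependent programme, Axin2 and Tbx3, had wide intervals. Axin2 ranged from 7.90 over 11.3 to 16.6 CPM in WT livers and from 4.90 over 10.1 to 18.7 CPM in KO livers (log2 fold change -0.09, interval -0.49 to 0.30). Tbx3 ranged from 18.5 over 31.4 to 69.3 CPM in WT livers and from 20.0 over 34.7 to 54.3 CPM in KO livers (-0.02, interval -0.47 to 0.42). Both changed sign without the low-slope livers, to 0.08 and 0.05. These intervals leave room for a difference in either direction.

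The periportal genes passed no test either. Hal ranged from 250 over 321 to 521 CPM in WT livers and from 166 over 356 to 497 CPM in KO livers, with a log2 fold change of 0.01 (interval -0.27 to 0.30). Sds ranged from 41.2 over 89.3 to 140 CPM in WT livers and from 46.6 over 84.4 to 163 CPM in KO livers (0.02, interval -0.38 to 0.42). For Gls2 the values were 194 over 272 to 360 CPM in WT livers and 198 over 287 to 352 CPM in KO livers (0.09, interval -0.13 to 0.30). WT and KO livers overlapped over most of the range of each periportal gene, and Sds and Gls2 changed sign without the low-slope livers (-0.14 and -0.01).

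**Figure D2:**
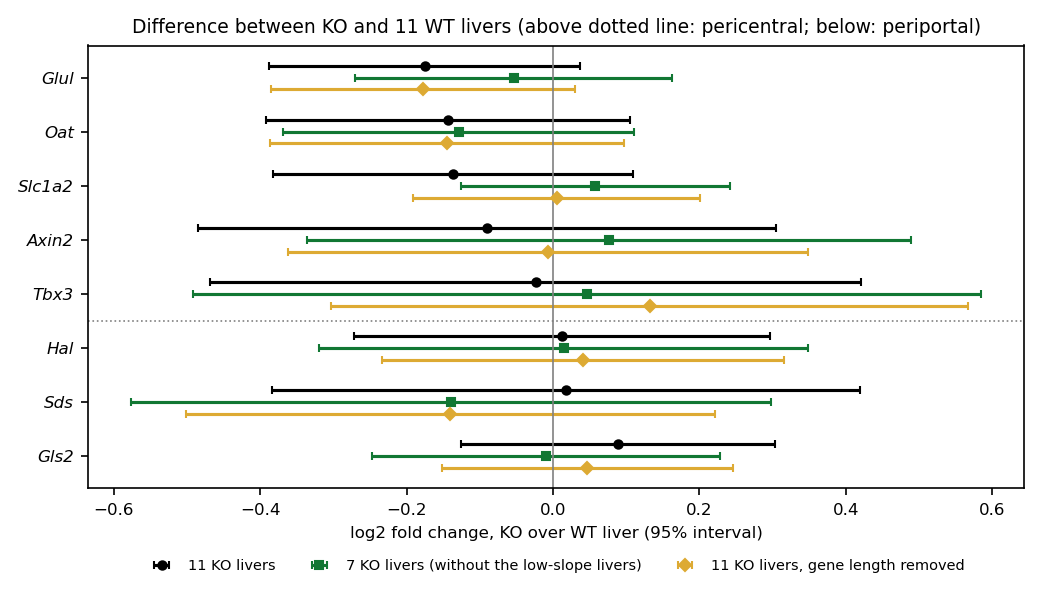
Log2 fold change of KO over WT liver with its 95% interval for each gene, over 11 KO livers, over 7 without the low-slope livers, and over 11 with gene length removed. All intervals include 0, and the change of Slc1a2 moves from -0.14 to 0.06 when the low-slope livers are left out.

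As a summary of zonation, the mean log2 CPM of the 3 periportal genes was subtracted from that of the 5 pericentral genes in each liver. The balance ran from -0.52 over a median of -0.23 to 0.65 in WT livers and from -0.99 over -0.19 to 0.35 in KO livers. The means lay the other way from the medians, at -0.09 (SD 0.38) in WT and -0.23 (SD 0.44) in KO livers, n = 11 each. The lowest values belonged to the low-slope livers of mice 532 and 611 (-0.99 and -0.74) and to mouse 588 (-0.71), which is not one of them. The groups otherwise overlapped.

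Other genes of the same zones and pathways were listed by function, and no list held a gene with an adjusted p under 0.05 (edgeR). Of 20 other pericentral genes, 2 passed an unadjusted p of 0.05, both higher in KO livers (9.78% of all genes): Cyp1a2, a drug-metabolizing cytochrome P450 (log2 fold change 0.62, SE 0.26), and Nr1i3, a xenobiotic receptor (0.23, SE 0.11). Of 20 other periportal genes, 1 did, Agxt, which detoxifies glyoxylate (0.37, SE 0.14; 0.12 without the low-slope livers). The median log2 fold changes of these lists were 0.06 and 0.06, against -0.01 over all genes.

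In the Wnt and R-spondin list, 27 of 28 genes were tested and 3 had an unadjusted p under 0.05, all lower in KO livers (3.1% of all genes). These were Lgr5, an R-spondin receptor gene (-0.44, SE 0.19), Gsk3b, a kinase of the β-catenin destruction complex (-0.32, SE 0.15), and Tcf7, a TCF/LEF factor gene (-0.17, SE 0.08). The adjusted p of each was 0.382 (edgeR). The list's median moved from -0.18 to 0.01 without the low-slope livers, where Lgr5 stood at -0.33, Tcf7 at -0.17 and Gsk3b at -0.07. Of 16 tested genes for glutamine and ammonia handling and 18 for histidine, serine and ornithine metabolism, 0 passed an unadjusted p of 0.05 (median log2 fold changes -0.04 and 0.04). The smallest p in these lists belonged to Slc25a15, the mitochondrial ornithine carrier (-0.12, SE 0.07), and to Shmt2, a serine hydroxymethyltransferase (0.13, SE 0.08).

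Markers of other cells were read beside these values, and 0 passed an adjusted p of 0.05 (edgeR). Of 6 Kupffer cell markers, 4 had an unadjusted p under 0.05, all with higher values in KO livers (9.78% of all genes). Without the low-slope livers it was 1 of 6 (2.96% of all genes in either direction). Their summed level ranged from 247 to 350 CPM in WT and from 223 to 730 CPM in KO livers, where mouse 532 had 730 CPM and the next, mouse 611, 454 CPM. Unadjusted p under 0.05 with higher values were also found for 2 of 6 hepatocyte markers and 1 of 5 tested cholangiocyte markers (9.78% of all genes), and with lower values for 1 of 6 stellate cell markers (3.1%). Of 6 endothelial markers 0 did, and their sums ranged from 254 to 292 CPM in WT and from 211 to 301 CPM in KO livers. Summed skeletal muscle markers ranged from 1.71 to 54.7 CPM in WT livers, where all but mouse 516 were at most 9.75 CPM, and from 0.117 to 18.5 CPM in KO livers. The median log2 fold change of the 3 tested muscle markers was -1.06. Without the low-slope livers, where Tnnt3 was tested as well, it was -2.55. In that fit 4 markers had an unadjusted p under 0.05 (2.96% of all genes in either direction, edgeR). The part of these cells in the zonation values was not tested.

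Axin2 and Tbx3 rose and fell together from mouse to mouse in both genotypes. Each of the 28 pairs of zonation genes was correlated within WT and within KO livers, which gave 56 two-sided permutation tests. In WT livers Axin2 and Tbx3 had a Pearson's r of 0.82 (p = 0.00217, adjusted p = 0.0405, n = 11) and a Spearman's rho of 0.79 (permutation p = 0.00542, adjusted p = 0.101). In KO livers r was 0.85 (permutation p = 0.00116, adjusted p = 0.0325, n = 11) and rho 0.83 (permutation p = 0.00284, adjusted p = 0.0795). The mice at the upper end were 623 and 624 in WT, with 16.3 and 16.6 CPM of Axin2 and 69.3 and 55.3 CPM of Tbx3, and 561 in KO, with 18.7 and 50.8 CPM.

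The pair was also followed in subsets of livers. Without the 2 livers farthest from the Axin2 median, r was 0.63 in WT livers (exact permutation p = 0.0695, adjusted p = 0.633, n = 9). In KO livers r was then 0.84 (exact permutation p = 0.00601, adjusted p = 0.112, n = 9). In the 7 KO livers that were not low-slope it was 0.92 (exact permutation p = 0.00536, adjusted p = 0.0930). Leaving out 1 mouse at a time kept r between 0.77 and 0.87 in WT and between 0.81 and 0.87 in KO livers. With gene length removed, r was 0.82 in WT and 0.71 in KO livers, and the adjusted p rose to 0.126 in both (permutation test). On log2 RPKM, r was 0.66 in WT (adjusted p = 0.189) and 0.94 in KO livers (adjusted p = 0.00392, permutation test). Among 9546 genes with a mean of at least 2 log2 CPM, Tbx3 ranked 30 by its r with Axin2 in WT livers, and Axin2 ranked 16 by its r with Tbx3.

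Glul and Slc1a2 were correlated in KO livers with an r of 0.92 (p = 8.0e-05, adjusted p = 0.00448, permutation test, n = 11) and a rho of 0.85 (permutation p = 0.00136, adjusted p = 0.0762). The 4 low-slope livers formed the low end of both genes. In the other 7 KO livers r was 0.78 (exact permutation p = 0.0548, adjusted p = 0.341). With gene length removed it was 0.69 over all 11 (adjusted p = 0.172, permutation test). Without the 2 livers farthest from the Glul median it was 0.78 (exact permutation p = 0.0116, adjusted p = 0.163, n = 9). In WT livers r was 0.20 (permutation p = 0.557, adjusted p = 0.780, n = 11) and rho 0.12. The difference between the genotypes was not tested.

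**Figure D3:**
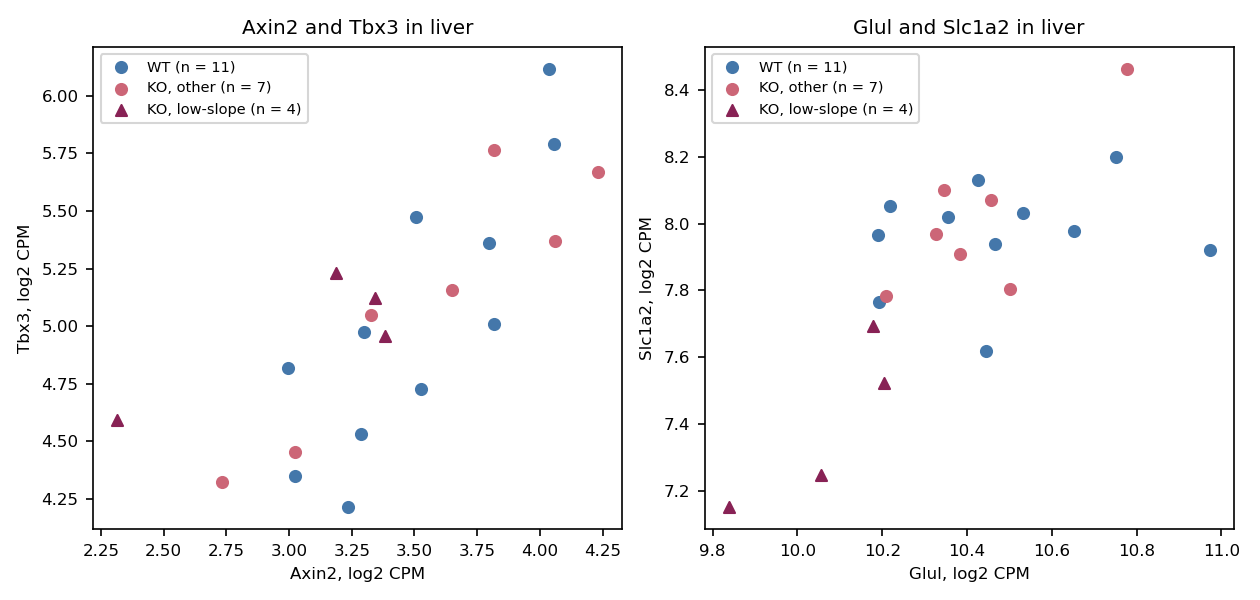
Log2 CPM of Axin2 against Tbx3 and of Glul against Slc1a2, each point 1 liver. Axin2 and Tbx3 rise together in WT and KO livers, while the low end of Glul and Slc1a2 is held by the 4 low-slope KO livers.

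The 3 periportal genes were positively correlated in WT livers, with an r of 0.59 for Hal and Sds, 0.79 for Hal and Gls2 and 0.77 for Sds and Gls2. No adjusted p of these pairs was under 0.05 (0.392, 0.0601 and 0.0671, permutation test). Without the 2 livers farthest from the median of the first gene of each pair, r was 0.46, 0.37 and 0.10. On log2 RPKM, Hal and Gls2 passed in WT livers (r = 0.85, adjusted p = 0.0263, permutation test, n = 11). The same 3 pairs had r of -0.11, 0.52 and 0.41 in KO livers, and of -0.21, 0.61 and 0.14 in the 7 that were not low-slope. Glul and Oat, neighbours in the pericentral layer, had r of 0.64 in WT (permutation p = 0.0359, adjusted p = 0.251) and 0.50 in KO livers (0.46 without the low-slope livers). Pairs across zones included an r of 0.74 for Oat and Gls2 in WT (adjusted p = 0.0797) and of -0.78 for Axin2 and Sds in KO livers (adjusted p = 0.0601, permutation test; r = -0.63 without the low-slope livers). In all, 1 of 28 pairs in WT and 2 of 28 in KO livers passed, and 0 of 28 in the 7 KO livers that were not low-slope. How many pairs of other genes would pass was not tested, so these counts have no share to be read against.

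**Figure D4:**
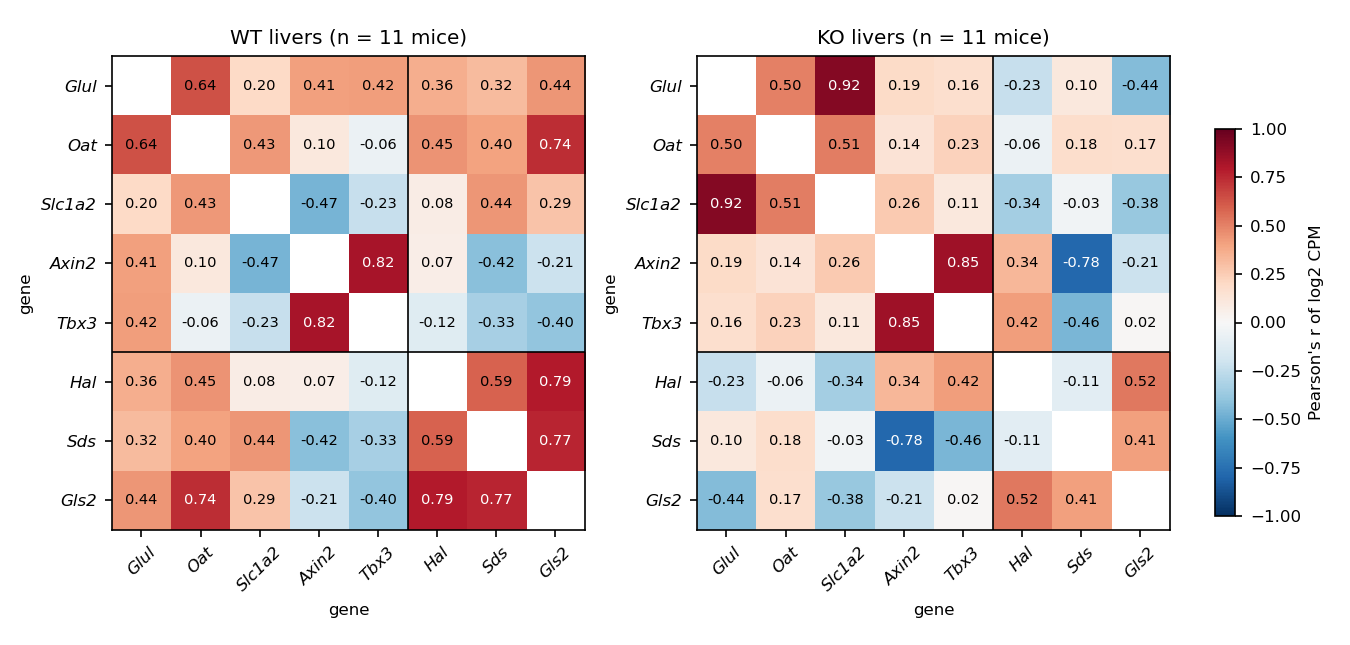
Pearson's r of log2 CPM for each pair of genes across 11 WT livers and across 11 KO livers, with lines between pericentral and periportal genes. The value for Axin2 and Tbx3 is 0.82 in WT and 0.85 in KO livers, and that for Glul and Slc1a2 is 0.20 and 0.92.

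Axin2 was next set against the 27 tested genes of the Wnt and R-spondin list in the same way, in a family of 54 tests. In WT livers the highest values were those of Rspo3, the R-spondin of central vein endothelium (r = 0.79), Rnf43, which removes Wnt receptors (0.79), and Lgr5 (0.77). Their adjusted p were 0.0580, 0.0790 and 0.0861 (permutation test, n = 11), so none passed, and r was 0.81, 0.61 and 0.80 without the 2 farthest livers. In KO livers these genes had r of 0.36, 0.62 and 0.53, and of 0.46, 0.77 and 0.33 without the low-slope livers. Only Fzd7, a Wnt receptor gene, passed, in KO livers (r = 0.89, p = 1.1e-04, adjusted p = 0.00594; rho 0.86, p = 0.00104, adjusted p = 0.0562, permutation tests). Its r was 0.78 without the 2 farthest livers, 0.87 in the 7 KO livers that were not low-slope, and 0.16 in WT livers. Positive values were found for 12 of 27 genes in WT livers, 23 of 27 in KO livers and 20 of 27 in KO livers without the low-slope libraries. The median r was -0.10 in WT and 0.48 in KO livers, the low-slope livers included, against -0.04 and 0.05 over 9546 genes. Without the low-slope livers the KO values of Ctnnb1, Apc and Lgr4 turned from 0.54, 0.54 and 0.47 to -0.61, -0.45 and -0.58. The difference between the genotypes was not tested.

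Glul was set against 20 other pericentral genes in the same way, in a family of 40 tests. Positive values were found for 10 of 20 genes in WT and 9 of 20 in KO livers. The median r in WT livers was -0.05, against -0.04 over 9546 genes, so the list as a whole did not follow Glul there. In WT livers Glul passed with Slc13a3, a dicarboxylate transporter (r = 0.90, p = 6.0e-05, adjusted p = 0.00160, permutation test, n = 11). The rho of this pair was 0.93 (adjusted p = 0.00640, permutation test). Without the 2 livers farthest from the Glul median r was 0.95. In KO livers r was 0.41, and 0.85 in the 7 that were not low-slope. Slc13a3 was also among the genes most like Glul across WT livers out of 9546, with Tbcd (r = 0.92), Limk2 (0.90) and Tbc1d7 (0.90). In KO livers Tbcd, Limk2 and Tbc1d7 had r of 0.12, -0.22 and -0.53, and in the 7 that were not low-slope of 0.95, -0.22 and -0.20.

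Sds passed with 0 of the 20 other periportal genes. Positive values were found for 17 of 20 genes in WT and 12 of 20 in KO livers (11 of 20 without the low-slope livers). The median r was 0.24 in WT and 0.09 in KO livers, against 0.04 and -0.04 over 9546 genes. The highest r in WT livers were those of Arg1, arginase of the urea cycle (0.82), Etnppl, a phosphoethanolamine lyase gene (0.77), and Sdsl, a paralogue of Sds (0.77), each with an adjusted p of 0.0772 (permutation test). Without the 2 livers farthest from the Sds median r was 0.30, 0.21 and 0.63. In KO livers it was 0.56, -0.15 and 0.56, and without the low-slope livers 0.73, -0.25 and 0.32. The values farthest from 0 in KO livers were negative, those of G6pc and Cdh1 (r = -0.71 each, adjusted p = 0.105, permutation test). Without the low-slope livers these 2 were -0.60 and -0.66. Among the genes most like Sds in WT livers were 2310022A10Rik (0.92), Mrpl58 (0.89), Arf6 (0.85) and Bysl (0.84). In KO livers these had r of 0.10, 0.59, -0.21 and 0.60, and in the 7 that were not low-slope of 0.75, 0.61, 0.74 and 0.40.

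The promoters of Axin2, Glul and Slc1a2, genes of the pairs that passed, are shown with that of the periportal gene Hal beside them. The windows hold the 250 bases before the RefSeq start (GRCm38.p6, plus strand): chr11:108920099-108920348 for Axin2, chr1:153899679-153899928 for Glul, chr2:102706188-102706437 for Slc1a2 and chr10:93488518-93488767 for Hal. Capitals mark letters of the kind read by TCF/LEF factors, searched on both strands. The letters searched were CTTTGA, then CTTTGT, which differs from it in the last letter, and lastly ATCAAAG, whose opposite strand includes the first of these.
Axin2: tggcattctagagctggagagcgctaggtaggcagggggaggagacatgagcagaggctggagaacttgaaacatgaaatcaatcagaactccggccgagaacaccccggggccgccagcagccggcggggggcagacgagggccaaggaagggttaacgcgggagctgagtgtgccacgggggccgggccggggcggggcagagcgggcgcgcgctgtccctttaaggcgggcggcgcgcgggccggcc
Glul: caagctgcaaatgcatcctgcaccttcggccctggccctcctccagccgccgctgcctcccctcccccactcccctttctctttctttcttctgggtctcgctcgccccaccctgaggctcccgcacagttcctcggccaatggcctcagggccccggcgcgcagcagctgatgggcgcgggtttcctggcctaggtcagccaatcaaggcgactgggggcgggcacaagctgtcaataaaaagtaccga
Slc1a2: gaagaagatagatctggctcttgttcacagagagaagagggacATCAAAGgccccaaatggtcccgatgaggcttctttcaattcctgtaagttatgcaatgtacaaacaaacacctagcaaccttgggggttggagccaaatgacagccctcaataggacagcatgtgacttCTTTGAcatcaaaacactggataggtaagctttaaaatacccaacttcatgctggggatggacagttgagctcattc
Hal: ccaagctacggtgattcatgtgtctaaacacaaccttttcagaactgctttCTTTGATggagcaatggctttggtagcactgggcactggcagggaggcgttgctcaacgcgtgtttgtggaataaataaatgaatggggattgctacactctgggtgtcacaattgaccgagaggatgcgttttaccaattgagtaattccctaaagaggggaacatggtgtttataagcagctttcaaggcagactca
Slc1a2 held CTTTGA 77 bases before the start and ATCAAAG at 207, the latter with an overlapping CTTTGA on the other strand. Hal, a periportal gene, held ATCAAAG on the minus strand at 199 bases, while Axin2, Glul and Oat held no match. Among 32851 promoter windows of this length, 13.8% held CTTTGA, 16.5% CTTTGT and 3.21% ATCAAAG. A match is a description of the letters, not of a bound site.

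Skeletal muscle served as the tissue without a lobule. Hal and Sds, Slc1a2 and Gls2 were close to 0 in WT muscle, with at most 1, 2, 4 and 8 reads in a library and no reads in 8, 7, 2 and 1 of 11 libraries. A count of 0 allows up to 3 reads, or 0.0887 to 0.138 CPM in these libraries, and no fold is given for these 4 genes. They passed the filter on low counts only through liver, so their test between tissues is not counted.

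The other 4 genes were measurable in muscle, and each was higher in WT liver (45.5% of 13907 genes were; edgeR). Glul, which also makes glutamine in muscle, had 305 over 456 to 491 CPM in WT muscle and was higher in liver by a log2 fold change of 1.81 (SE 0.10). Oat had 221 over 255 to 278 CPM and a log2 fold change of 2.76 (SE 0.09). Tbx3 had 2.85 over 3.64 to 5.37 CPM (3.28, SE 0.21). Axin2 differed least, with 5.42 over 7.77 to 10.4 CPM in muscle and a log2 fold change of 0.63 (SE 0.13, adjusted p = 1.1e-04, edgeR), and was the gene whose ranges overlapped between tissues. Per length, Glul with a median of 211 RPKM stood above Oat with 114 in WT muscle, the reverse of their order in liver.

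Between the muscle libraries labelled KO and WT, 0 of the 4 genes that passed the filter differed (1 of 13266 genes was called, 0.00754%; edgeR). The log2 fold changes were 0.09 for Glul (interval -0.24 to 0.41), -0.02 for Oat (-0.13 to 0.08), -0.19 for Axin2 (-0.43 to 0.05) and -0.11 for Tbx3 (-0.45 to 0.22). Glul varied more in the libraries labelled KO, from 234 to 764 CPM, than in WT muscle. The interaction of genotype and tissue was called for 0 of these 4 genes (0.00678% of 14739 genes; edgeR), and the other 4, near 0 reads in muscle, entered that test only through liver. Their test is therefore not counted, and Slc1a2 had at most 18 reads in any muscle library.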

How the data were processed

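RNA from liver and skeletal muscle was poly(A)-selected and sequenced single-end with a stranded kit; whether counting used strand is not given, so reads from Tbx3 and its antisense genes may not be told apart. The authors deposited raw counts per gene and RPKM values for 44 libraries and 38202 genes. The aligner, genome build and annotation are not given in the sources used here. Groups came from the labels, and the animal number pairs liver and muscle of a mouse. Liver and muscle of a mouse deviated together with a mean r of 0.10 over 22 mice, against -0.01 over 220 pairs of different mice. No libraries were identical.

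Counts were analysed with edgeR 4.0.16 in R 4.3.3 (TMM scaling, the filter filterByExpr and the quasi-likelihood F-test, with p adjusted over all genes after Benjamini and Hochberg, a threshold of 0.05 and 95% intervals). Log2 CPM used a prior count of 2. Gene length was the median over libraries of the value implied by counts and RPKM, which was not fixed between libraries. Results on RPKM therefore also carry differences in this length. Gene length was removed by a loess of span 0.3. Correlations were tested by 100000 permutations, or exactly for 9 or fewer livers (numpy 2.4.6). The 2 farthest livers were taken from the median of 1 gene only. This was the first named gene of a pair, or the gene set against a list. With Rhbg not analysed, 56 pairs remained of the planned family. Alternatives were DESeq2 1.42.0, limma 3.58.1 (voom and RPKM), sva 3.50.0, other scalings and filters, a mouse block and mice left out. On simulated counts (12903 genes, 200 changed by a log2 fold change of 1), the liver test recovered 89.5% and called 8 others. The simulated counts held no low-slope livers and no smaller changes. They give no power for differences as small as those of the zonation genes.

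The members and lists were chosen with earlier results of these data known. Genes named were the members, the 5 most like Glul and the 5 most like Sds, and genes of the lists with the smallest p. Some genes that this rule names are not reported here. The genes set against Axin2, Glul and Sds were added after seeing the data, and those named there were chosen by their r. Symbols matched 36340 rows. Promoter sequences from RefSeq (GRCm38.p6) matched 5 of 9 genes.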

Additional observations from a re-analysis of the deposited data

How the results depend on the processing

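In KO against WT liver, 0 of 8 zonation genes were called under every alternative that was run. Over all genes the count of calls was 6 with DESeq2 and 1 with a minimum of 10 counts in every library, and stayed at 3 with any mouse left out. The sign was not settled for genes near 0. Without the low-slope KO livers Slc1a2 was 0.058, Axin2 0.077, Tbx3 0.047, Sds -0.14 and Gls2 -0.0093 on the log2 scale. With gene length removed Slc1a2 was 0.0050, Tbx3 0.13 and Sds -0.14, and with 1 surrogate variable Axin2 was 0.071, Tbx3 0.055 and Sds -0.17. Total count scaling gave -0.045 for Hal and -0.046 for Sds, limma-voom 0.024 for Tbx3 and -0.0094 for Hal, and log2 RPKM -0.10 for Sds with a pseudocount of 0.1, and -0.10 with a pseudocount of 1, filtered or not. Glul was -0.33 on log2 RPKM under each of these settings, against -0.18. With 1 mouse left out at a time, Tbx3 ranged from -0.11 to 0.12, Hal from -0.051 to 0.088 and Sds from -0.097 to 0.11. In muscle, limma-voom called 0 genes in all, and for the interaction total count scaling called 3. With the mouse as a replicate block, the pairing left the 4 genes measured in muscle called between tissues (12674 genes in all). For the interaction 0 of these 4 were called (1 gene in all), and no other call changed.

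The pairs of genes that passed depended on the processing. In WT livers 0 passed by Spearman's rho, with gene length removed or without the 2 farthest livers, and 2 passed with total count scaling. On log2 RPKM 1 passed, but it was Hal and Gls2 in place of Axin2 and Tbx3. In KO livers 0 passed by rho, with gene length removed, without the 2 farthest or without the low-slope livers, and 1, Axin2 and Tbx3, passed on log2 RPKM. Leaving out each mouse in turn, which was chosen after seeing the data, gave 0 to 1 pairs in WT livers (0 without mouse 516, 528, 537, 567, 616 or 624) and 1 to 3 in KO livers (1 without mouse 561 or 588). The cause was not tested, though fewer livers enter some of these. With 11 mice per genotype, small differences in the genes with wide intervals were not detectable. The standard error was 0.19 for Axin2 (at most 591 reads in a liver), 0.22 for Tbx3 (at most 1971) and 0.19 for Sds (at most 4404). The part of read number in these values was not tested.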
